A study of Mus musculus with 6 samples.

Results

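The 36 genes described here encode the constitutive core and cap of the proteasome, taken as every gene symbol of the array platform made of Psma, Psmb, Psmc or Psmd and a number. The catalytic subunits of the immunoproteasome, Psmb8, Psmb9 and Psmb10, were left out of that set. Of 18193 genes with a symbol of their own on the array, 8 were Psma, 8 Psmb, 6 Psmc and 14 Psmd members. Each gene was read on the brightest of its probe sets, by the mean of 6 arrays. RNA of heart muscle was hybridised to 3 TNFαDes-/- and 3 Des-/- one-colour oligonucleotide arrays.

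The TNFαDes-/- mice lack desmin, an intermediate filament protein that links the sarcomeres of muscle, overexpress the cytokine TNF-α in the heart, and have a mixed 129SV/C57 background. The Des-/- mice lack desmin, carry no such transgene by their label, and are of strain 129SV. Both groups were 3 months old. Strain and transgene therefore cannot be told apart, and the sources used here do not give the promoter that drives the transgene. Per the labels, RNA from 3 hearts was pooled for each genotype before labelling, while the series design gives 3 mice per genotype, so p-values measure only the spread between arrays, which may be technical. Neither group has intact desmin, and no array of wild-type heart was used here.

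The proteasome degrades proteins tagged with ubiquitin chains. Its barrel-shaped core is built of outer rings of Psma (alpha) subunits, which form the gate, and inner rings of Psmb (beta) subunits, of which Psmb5, Psmb6 and Psmb7 carry the cutting sites. A cap on the end of the core holds a ring of Psmc ATPases, which unfold substrates and thread them into the core, and Psmd subunits, which recognise the substrate and remove its ubiquitin. In heart muscle it clears misfolded proteins and turns over sarcomere proteins. Some symbols of the set name genes outside the standard particle: Psma8 is an alpha subunit of testis, Psmb11 a beta subunit of thymus, and Psmd5, Psmd9 and Psmd10 are chaperones that assemble the base of the cap.

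Desmin is absent in both genotypes by design, so its probe set checks no label here: Des read 8.75, 8.88 and 8.73 on the TNFαDes-/- arrays, against 8.42, 8.43 and 8.33 on the Des-/- arrays, a log2 change of 0.39 ± 0.10 (limma adjusted p = 0.0219). Tnf, the gene of the transgene's product, averaged 5.94 ± 0.19 in TNFαDes-/- and 5.87 ± 0.09 in Des-/- hearts (log2, SD, n = 3 each), with overlapping groups and a change of 0.07 ± 0.12 that did not pass (limma adjusted p = 0.746). Whether the probes of Tnf and Des cover the transgene and the intact part of the disrupted gene is unknown here, so neither value checks the genotypes.

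As deposited, 21 of the 36 genes (58.3%) were higher in TNFαDes-/- hearts, 1 was lower and 14 did not pass the test (limma, Benjamini-Hochberg adjusted p under 0.05 over all 18193 genes). Over all genes, 15.2% were called higher and 6.05% lower. Among the brightest 20% of genes, which hold 31 of the 36 members, 31.3% were called higher and 5.06% lower. The members' log2 changes ran from -0.40 to 1.19 with a median of 0.51, which is 1.42-fold, beside a median of 0.27 for the brightest 20% of genes and 0.04 for all genes. Most changes were below 2-fold: 10 of the 21 were at least 1.5-fold higher and 1, Psma4, at least 2-fold.

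The arrays do not share 1 distribution of values, and this touches every result below. The 99th percentile of the deposited log2 values was 12.31 to 12.34 on the TNFαDes-/- arrays, against 12.30 on Des-/- replicate 1 and 11.77 and 11.71 on Des-/- replicates 2 and 3. After quantile normalization, which gives all arrays 1 distribution, 11 members (30.6%) were higher and 1 lower, beside 12.0% and 10.4% of all genes. All 11 were among the 21. The members' median log2 change was then 0.23, against 0.02 for the brightest 20% of genes, of which 19.8% were called higher and 17.5% lower. Of the 35 members with a positive change as deposited, 5 turned negative (Psma1, Psma7, Psmb2, Psmc1 and Psmd2), and none of these 5 had passed the test.

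In the median over the 36 members, Des-/- replicate 1 stood between the other arrays. Its level exceeded the mean of Des-/- replicates 2 and 3 by a median of 0.46 on the log2 scale over the 36 members, and by 0.36 over the brightest 20% of genes. It reached at least the lowest TNFαDes-/- array in 7 of the 36 members and in 2048 of the 3638 brightest genes. Without it, 33 members were higher and 1 lower (limma), beside 23.4% of all genes and 57.9% of the brightest 20% called higher and 8.56% of all genes called lower, and the members' median was 0.69. In that fit 7 of 8 heart muscle markers were also higher, with a median over the 8 of 0.58, as against 0 of 8 with all arrays. Without TNFαDes-/- replicate 1, 2 or 3 the counts of members called higher were 9, 15 and 7, where all genes gave 8.34%, 14.4% and 8.11% and the brightest 20% gave 16.8%, 25.9% and 16.6%. Without Des-/- replicate 2 or 3 the counts were 7 and 8, beside 8.82% and 8.57% of all genes; of the brightest 20%, 622 and 619 of 3638 genes were higher (17.1% without replicate 2). Calls thus became fewer across all genes as well as among the members in these fits. With quantile normalization and without Des-/- replicate 1, 14 members were higher and 1 lower, beside 12.9% and 13.5% of all genes, and 22.3% of the brightest 20% were called higher.

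**Figure D1:**
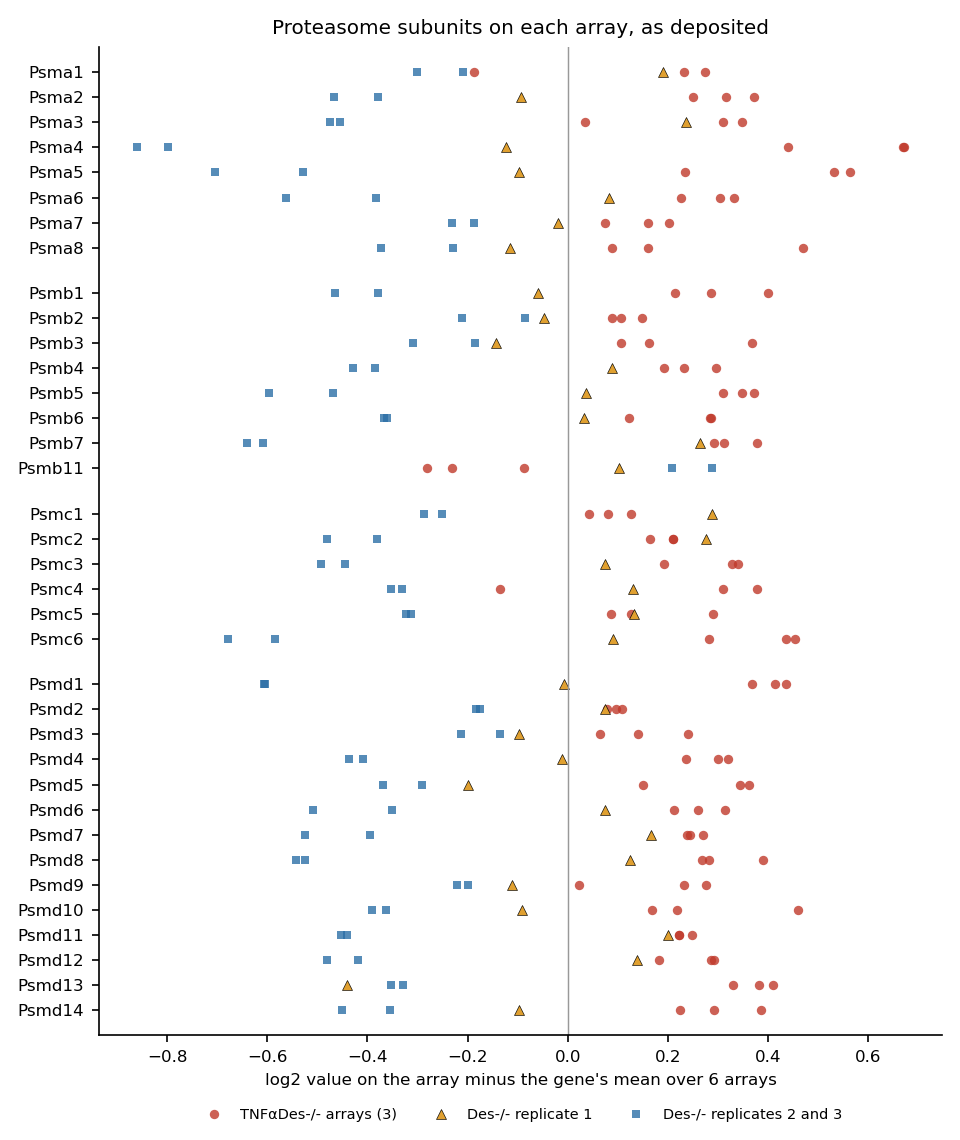
Each row is a gene, grouped as Psma, Psmb, Psmc and Psmd, and the horizontal axis gives its deposited log2 value on an array minus its mean over the 6 arrays. Red circles are the 3 TNFαDes-/- arrays, the yellow triangle Des-/- replicate 1 and blue squares Des-/- replicates 2 and 3. In 29 genes the 3 circles lie to the right of the triangle and both squares, and the triangle mostly lies between them; Psmb11 runs the other way.

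Separation of the 2 genotypes was also counted without a test. In 29 of 36 members every TNFαDes-/- array was above every Des-/- array, as in 24.3% of all genes and 42.2% of the brightest 20%, and in 1 member (Psmb11) every TNFαDes-/- array was below, as in 13.7% of all genes. Quantile normalization left 23 members fully above, beside 20.6% of all genes and 32.4% of the brightest 20%. By family, the groups did not overlap with TNFαDes-/- above in 6 of 8 Psma, 7 of 8 Psmb, 2 of 6 Psmc and 14 of 14 Psmd genes. After quantile normalization the counts were 5, 4, 2 and 12.

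Per array, the median over the 36 members of the log2 value minus the gene's mean was 0.26, 0.22 and 0.31 on the TNFαDes-/- arrays, against 0.05, -0.38 and -0.43 on the Des-/- arrays. These medians show Des-/- replicate 1 apart from its group. After quantile normalization they were 0.12, 0.11 and 0.12 on the TNFαDes-/- arrays, against -0.09, -0.10 and -0.09 on the Des-/- arrays, so the spread within Des-/- closed and a gap between the genotypes was left. For the brightest 20% of genes the same medians after quantile normalization were 0.00, 0.01 and 0.01 on the TNFαDes-/- arrays, against -0.04, 0.00 and 0.00 on the Des-/- arrays.

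**Figure D2:**
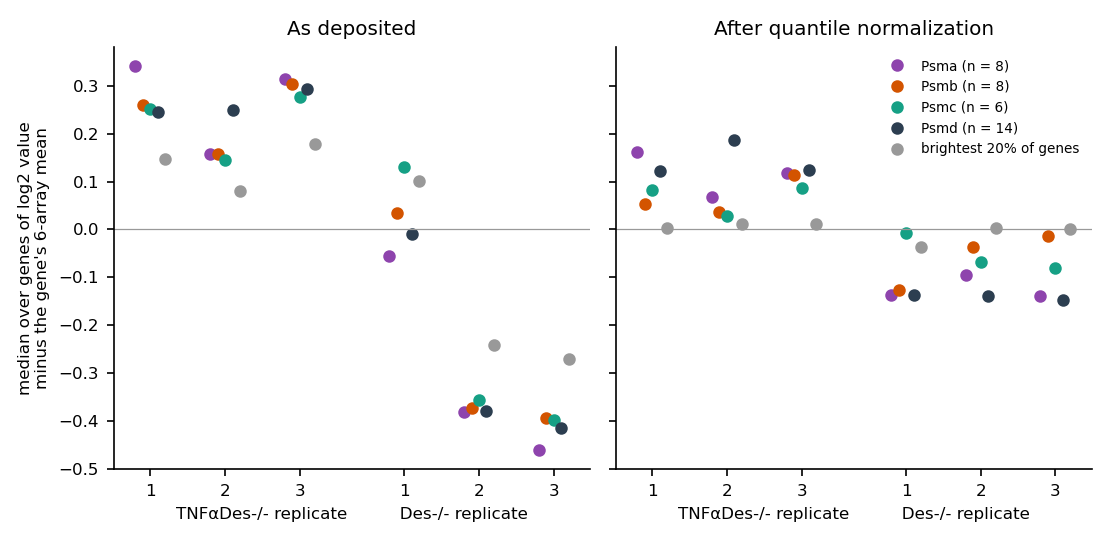
Points give, for each array, the median over a set of genes of the log2 value minus the gene's mean over the 6 arrays, as deposited (left) and after quantile normalization (right). As deposited, Des-/- replicate 1 lies above Des-/- replicates 2 and 3 in each Psm family and in the brightest 20% of genes (grey); after quantile normalization the grey points lie near 0 and the Psm families stay higher on the TNFαDes-/- arrays, least so for Psmb and Psmc.

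Proteasome genes are known to be induced together by NFE2L1, a transcription factor that binds antioxidant response elements when proteasome activity falls. RefSeq promoter windows (GRCm38.p6, 250 bases before to 50 after the transcription start site) were at hand for 29 of the 36 members. The core letters of that element, TGACNNNGC on either strand, occurred in 5 of the 29 (17.2%): Psmb5, Psmb6, Psmc6, Psmd9 and Psmd12. They occurred in 14.0% of the 27025 genes with a window. CCAAT on either strand, the letters bound by NF-Y, occurred in 12 of the 29 (41.4%) and in 41.1% of all those genes. Both shares are descriptions of letters in a window of 300 bases.

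The windows of the gene with the largest called rise in each family are shown, Psma4 at chr9:54950609-54950908 (+ strand), Psmb5 at chr14:54617946-54618245 (- strand), Psmc6 at chr14:45329574-45329873 (+ strand) and Psmd1 at chr1:86064369-86064668 (+ strand), with that of the other catalytic subunit that has an entry, Psmb6 at chr11:70525107-70525406 (+ strand). Each reads 5′ to 3′ on the gene's strand, and capitals mark TGACNNNGC or its reverse complement. In Psmb5 the match starts at position -47 from the start site, in Psmb6 at -9 and in Psmc6, on the opposite strand, at -227. The windows of Psma4 and Psmd1, which had the largest changes of their families, hold no such match, and none of the 5 windows holds CCAAT.
Psma4: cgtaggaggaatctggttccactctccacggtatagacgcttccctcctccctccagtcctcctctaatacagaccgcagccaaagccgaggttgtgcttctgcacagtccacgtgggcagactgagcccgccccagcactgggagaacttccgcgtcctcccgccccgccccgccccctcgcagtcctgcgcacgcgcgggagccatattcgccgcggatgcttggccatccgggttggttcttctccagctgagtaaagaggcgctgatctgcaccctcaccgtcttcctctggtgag
Psmb5: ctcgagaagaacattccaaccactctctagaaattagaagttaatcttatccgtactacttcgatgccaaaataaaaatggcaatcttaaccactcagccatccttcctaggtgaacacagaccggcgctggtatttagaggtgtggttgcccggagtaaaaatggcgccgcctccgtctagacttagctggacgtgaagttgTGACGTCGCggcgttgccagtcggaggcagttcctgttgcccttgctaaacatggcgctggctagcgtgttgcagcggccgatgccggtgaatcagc
Psmb6: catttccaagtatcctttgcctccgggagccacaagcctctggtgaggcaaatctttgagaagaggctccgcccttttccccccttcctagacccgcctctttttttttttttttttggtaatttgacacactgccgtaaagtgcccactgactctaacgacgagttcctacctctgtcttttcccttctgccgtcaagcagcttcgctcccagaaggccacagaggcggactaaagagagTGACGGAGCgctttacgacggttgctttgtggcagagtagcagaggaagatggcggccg
Psmc6: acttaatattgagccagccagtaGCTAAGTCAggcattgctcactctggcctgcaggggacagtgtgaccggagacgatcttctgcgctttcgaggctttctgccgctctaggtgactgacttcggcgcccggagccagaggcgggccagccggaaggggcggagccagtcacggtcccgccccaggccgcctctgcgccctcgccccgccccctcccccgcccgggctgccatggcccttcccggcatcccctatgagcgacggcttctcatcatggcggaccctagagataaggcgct
Psmd1: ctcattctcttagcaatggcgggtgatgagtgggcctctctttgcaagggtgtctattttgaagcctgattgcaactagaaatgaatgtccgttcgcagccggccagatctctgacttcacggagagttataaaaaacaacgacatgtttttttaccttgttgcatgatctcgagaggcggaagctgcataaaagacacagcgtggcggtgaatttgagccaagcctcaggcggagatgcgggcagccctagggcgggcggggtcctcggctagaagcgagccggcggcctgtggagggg

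Among the alpha subunits, which form the outer rings and gate of the core, 5 of 8 (62.5%) rose and 0 fell (median 0.53). After quantile normalization 3 (37.5%) rose (median 0.24). Called higher were 15.2% of all genes and 31.3% of the brightest 20%, or 12.0% and 19.8% after quantile normalization. Psma4 read 11.13, 11.13 and 10.90 on the TNFαDes-/- arrays, against 10.33, 9.60 and 9.66 on the Des-/- arrays (deposited log2 values, as in all sentences of this kind). The lowest TNFαDes-/- value thus lay above the highest Des-/- value. Its log2 change of 1.19 ± 0.19 (SE), or 2.28-fold, was the largest of all members (limma adjusted p = 0.00337; after quantile normalization 0.87 ± 0.12, adjusted p = 0.0014). The call held with each array left out in turn, at changes of 1.05 to 1.42.

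Psma5, another ring subunit, read 10.99, 10.66 and 10.96 on the TNFαDes-/- arrays, against 10.33, 9.89 and 9.72 on the Des-/- arrays. The groups did not overlap, and the change was 0.89 ± 0.17, or 1.85-fold (limma adjusted p = 0.00707; after quantile normalization 0.58 ± 0.10, adjusted p = 0.00447). Its second bright probe set gave 0.90 ± 0.11, while the third, which read below each array's median, gave 0.06 ± 0.09. Because the first and second carry the suffix _a_at (shared by transcripts of 1 gene), leaving out such probe sets put the gene on the third and ended the call.

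Psma2 read 11.33, 11.21 and 11.28 on the TNFαDes-/- arrays, against 10.87, 10.58 and 10.49 on the Des-/- arrays. Its 3 TNFαDes-/- values were above all Des-/- values, with a change of 0.63 ± 0.12 (limma adjusted p = 0.00742) that did not pass after quantile normalization (0.26 ± 0.09, adjusted p = 0.0712). Psma6 rose by 0.58 ± 0.16 as deposited (limma adjusted p = 0.0336) and stood at 0.21 after quantile normalization (adjusted p = 0.102). The testis subunit Psma8 passed at 0.48 ± 0.13 (limma adjusted p = 0.0309), but read above the array's median on 1 of 6 arrays, and no fold is given at such low levels. The other 3 alpha genes did not pass: Psma3 stood at 0.46 ± 0.19, Psma7 at 0.29 ± 0.10 and Psma1 at 0.21 ± 0.17. In Psma1 and Psma3 TNFαDes-/- replicate 2 lay below Des-/- replicate 1, so their groups overlapped.

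Of the beta subunits, which form the inner rings, 5 of 8 (62.5%) rose and 1 fell (median 0.47). After quantile normalization 1 (12.5%) rose and 1 fell (median 0.11), where 12.0% of all genes and 19.8% of the brightest 20% were called higher. The 3 catalytic subunits are described first. Psmb5, which carries the chymotrypsin-like site, read 11.37, 11.43 and 11.40 on the TNFαDes-/- arrays, against 11.09, 10.46 and 10.59 on the Des-/- arrays. The TNFαDes-/- arrays lay within a narrow span above all Des-/- arrays, and the change of 0.69 ± 0.16, or 1.61-fold, passed under both scalings (limma adjusted p = 0.0166; after quantile normalization 0.32 ± 0.09, adjusted p = 0.0325). The call was lost without TNFαDes-/- replicate 1, TNFαDes-/- replicate 3, Des-/- replicate 2 or Des-/- replicate 3 (changes of 0.56 to 0.88 over all 6 such fits, limma adjusted p at most 0.0666).

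Psmb6, the subunit with the caspase-like site, read 10.99, 10.82 and 10.99 on the TNFαDes-/- arrays, against 10.74, 10.34 and 10.34 on the Des-/- arrays. Its groups did not overlap as deposited; its change of 0.46 ± 0.13 passed (limma adjusted p = 0.0373), but was 0.10 ± 0.08, adjusted p = 0.435 after quantile normalization, where the groups overlapped. Psmb7, which carries the trypsin-like site, read 12.07, 11.98 and 12.00 on the TNFαDes-/- arrays, against 11.95, 11.08 and 11.05 on the Des-/- arrays. Des-/- replicate 1 lay just below the lowest TNFαDes-/- array and 0.89 above the mean of the other Des-/- arrays, the widest such gap among members. The change of Psmb7 was 0.66 ± 0.22 and did not pass (limma adjusted p = 0.0671), whereas without Des-/- replicate 1 it was 0.95, adjusted p = 0.00036, and 0.40 (adjusted p = 0.00978) when quantile normalization was added. The changes of the 3 catalytic genes as deposited, 0.46 to 0.69, were not tested against each other.

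Among the structural beta genes, Psmb1 read 11.24, 11.17 and 11.36 on the TNFαDes-/- arrays, against 10.90, 10.58 and 10.49 on the Des-/- arrays, with no overlap and a change of 0.60 ± 0.13 (limma adjusted p = 0.0114; after quantile normalization 0.24 ± 0.09, adjusted p = 0.0962). Psmb4 read 11.59, 11.55 and 11.65 on the TNFαDes-/- arrays, against 11.45, 10.97 and 10.93 on the Des-/- arrays, with Des-/- replicate 1 close below the TNFαDes-/- arrays. Its change was 0.48 ± 0.14 (limma adjusted p = 0.0454), but 0.12 ± 0.08, adjusted p = 0.308 after quantile normalization, and its other probe set gave 0.13 ± 0.27. Psmb3 rose by 0.42 ± 0.11 (limma adjusted p = 0.0252), but stood at 0.08 ± 0.12 after quantile normalization (adjusted p = 0.693). Its other probe set gave 0.27 ± 0.12 and did not pass (limma adjusted p = 0.184 over all probe sets). Psmb2 stood at 0.23 ± 0.10 without passing (adjusted p = 0.125).

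Psmb11, the thymus beta subunit was the 1 member that fell. It read 3.72, 3.57 and 3.52 on the TNFαDes-/- arrays, against 3.91, 4.09 and 4.01 on the Des-/- arrays. All TNFαDes-/- values were lower, with a log2 change of -0.40 ± 0.10 (limma adjusted p = 0.0262; after quantile normalization -0.39 ± 0.09, adjusted p = 0.0187). Every array's median was higher than these levels, which may not exceed background, so no fold is given. The call was lost without TNFαDes-/- replicate 2 or 3 or Des-/- replicate 2 or 3 (adjusted p at most 0.108).

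**Figure D3:**
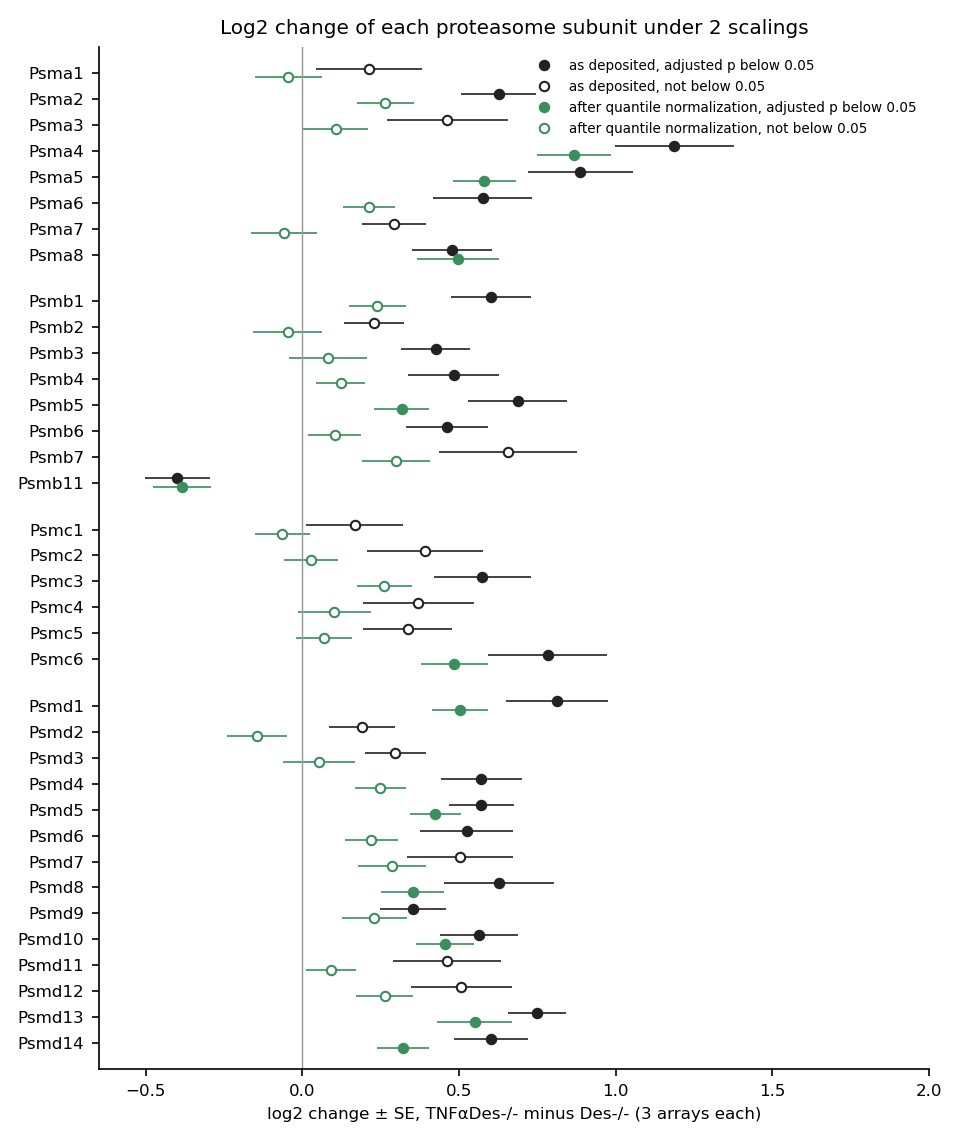
The horizontal axis gives each gene's log2 change, TNFαDes-/- minus Des-/- with its SE (3 arrays each), as deposited (black) and after quantile normalization (green); filled circles passed the test and open ones did not. Psma4 lies farthest to the right under both scalings and Psmb11 is the 1 gene called to the left of 0; the Psmc genes other than Psmc3 and Psmc6 are open under both.

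Of the 6 ATPases of the cap, 2 (33.3%) rose and 0 fell (median 0.38). After quantile normalization 1 of 6 (16.7%) rose (median 0.09). These shares lie near the 31.3% and 19.8% of the brightest 20% of genes called higher under the 2 scalings. Differences between the families were not tested. Psmc6 read 10.82, 10.65 and 10.80 on the TNFαDes-/- arrays, against 10.45, 9.78 and 9.68 on the Des-/- arrays. The TNFαDes-/- arrays were all above, though Des-/- replicate 1 was well above its group. The change was 0.78 ± 0.19, or 1.72-fold (limma adjusted p = 0.0207; after quantile normalization 0.48 ± 0.11, adjusted p = 0.0132). Its second bright probe set gave 0.71 ± 0.26 (adjusted p = 0.103 over all probe sets), and the call was lost without TNFαDes-/- replicate 1 or 3 or Des-/- replicate 2 or 3 (adjusted p at most 0.0831).

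Psmc3 read 10.76, 10.89 and 10.91 on the TNFαDes-/- arrays, against 10.64, 10.07 and 10.12 on the Des-/- arrays. The groups did not overlap, and its change of 0.57 ± 0.15 passed (limma adjusted p = 0.0307), but not after quantile normalization (0.26 ± 0.09, adjusted p = 0.0677). In the remaining 4 ATPases the groups overlapped: Psmc2 stood at 0.39 ± 0.18, Psmc4 at 0.37 ± 0.18, Psmc5 at 0.34 ± 0.14 and Psmc1 at 0.17 ± 0.16, with adjusted p from 0.13 to 0.504. In Psmc1 and Psmc2 Des-/- replicate 1 was the highest of all 6 arrays. Without that array all 6 ATPases passed, at 0.35 to 1.02, and after quantile normalization without it 1 of 6 did.

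Of the 14 Psmd genes, 9 (64.3%) rose and 0 fell (median 0.54), beside 31.3% of the brightest 20% of genes called higher. After quantile normalization 6 (42.9%) rose (median 0.27), beside 19.8%. Psmd1, a large scaffold of the cap's base, read 10.87, 10.89 and 10.83 on the TNFαDes-/- arrays, against 10.45, 9.85 and 9.85 on the Des-/- arrays. The TNFαDes-/- arrays lay close together above all Des-/- arrays, with a change of 0.81 ± 0.16, or 1.76-fold (limma adjusted p = 0.00891; after quantile normalization 0.50 ± 0.09, adjusted p = 0.0051). Psmd13, a subunit of the lid, read 9.30, 9.25 and 9.32 on the TNFαDes-/- arrays, against 8.47, 8.56 and 8.59 on the Des-/- arrays. Here the 3 Des-/- arrays read alike, Des-/- replicate 1 included, and the change of 0.75 ± 0.09, or 1.68-fold, had the lowest adjusted p of all members (limma adjusted p = 0.00101; after quantile normalization 0.55 ± 0.12, adjusted p = 0.0126). Its second bright probe set gave 0.66 ± 0.10 (adjusted p = 0.0049 over all probe sets).

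Psmd14, the deubiquitinase that removes ubiquitin chains from substrates, read 10.48, 10.41 and 10.58 on the TNFαDes-/- arrays, against 10.09, 9.84 and 9.74 on the Des-/- arrays. The groups did not overlap and the change was 0.60 ± 0.12 (limma adjusted p = 0.00827; after quantile normalization 0.32 ± 0.08, adjusted p = 0.0255). On its brightest probe set Psmd4, a receptor for ubiquitin chains, read 10.80, 10.88 and 10.86 on the TNFαDes-/- arrays, against 10.55, 10.15 and 10.12 on the Des-/- arrays, again with no overlap. That probe set changed by 0.57 ± 0.13 (limma adjusted p = 0.0153; after quantile normalization 0.25 ± 0.08, adjusted p = 0.0615), while its other probe sets gave 0.17 ± 0.13 and -0.16 ± 0.12, the last being the widest gap among probe sets read above the median on all arrays. Psmd2, the other large scaffold of the base and a docking site for ubiquitin carriers, read 10.63, 10.60 and 10.62 on the TNFαDes-/- arrays, against 10.59, 10.34 and 10.34 on the Des-/- arrays. Des-/- replicate 1 read close to the TNFαDes-/- arrays, and the change of 0.19 ± 0.11 did not pass (limma adjusted p = 0.248; after quantile normalization -0.14 ± 0.10, adjusted p = 0.332).

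Psmd8, a lid subunit, read 10.47, 10.60 and 10.49 on the TNFαDes-/- arrays, against 10.33, 9.68 and 9.66 on the Des-/- arrays. The TNFαDes-/- arrays were higher throughout, and the change of 0.63 ± 0.18 passed under both scalings (limma adjusted p = 0.0349; after quantile normalization 0.35 ± 0.10, adjusted p = 0.0368) but in only 1 of the 6 fits with an array left out, that without Des-/- replicate 1. Psmd6, also of the lid, rose by 0.52 ± 0.15 (limma adjusted p = 0.0374; after quantile normalization 0.22 ± 0.08, adjusted p = 0.0998). The other lid or base genes did not pass: Psmd12 stood at 0.51 ± 0.16, Psmd7 at 0.50 ± 0.17, Psmd11 at 0.46 ± 0.17 and Psmd3 at 0.30 ± 0.10, all with groups that did not overlap and adjusted p from 0.0565 to 0.0914.

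The cap's assembly chaperones among the Psmd symbols all rose: Psmd5 by 0.57 ± 0.10, Psmd10 by 0.56 ± 0.13 and Psmd9 by 0.35 ± 0.11 (limma adjusted p = 0.00619, 0.0144 and 0.0441). After quantile normalization Psmd5 and Psmd10 still passed, at 0.42 and 0.46, and Psmd9 did not (0.23 ± 0.10, adjusted p = 0.157). Psmd10, known as gankyrin, averaged 7.64 ± 0.16 in TNFαDes-/- and 7.08 ± 0.17 in Des-/- hearts (log2, SD, n = 3 each).

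Members differed in how far Des-/- replicate 1 stood from its group. The gap between it and the mean of Des-/- replicates 2 and 3 ran from -0.15 in Psmb11 to 0.89 in Psmb7 on the log2 scale and was above 0.3 in 25 members. In 7 members it was at most 0.15 in size: Psmb2, Psmb3, Psmb11, Psmd3, Psmd5, Psmd9 and Psmd13, of which Psmb3, Psmd5, Psmd9 and Psmd13 rose and Psmb11 fell. Of the 22 calls, 7 held with each array left out in turn: Psma2, Psma4, Psma5, Psmd1, Psmd5, Psmd13 and Psmd14. The number of the 22 lost was 12, 7 and 15 without TNFαDes-/- replicates 1, 2 and 3, and 0, 15 and 14 without Des-/- replicates 1, 2 and 3. Such fits rest on fewer arrays. Over all genes, 3869 passed with all arrays, and 2075, 3641 and 2068 without TNFαDes-/- replicates 1, 2 and 3. Without Des-/- replicates 1, 2 and 3 the numbers were 5814, 2232 and 2220. How many calls of all genes held in every such fit or setting was not counted, so the members' counts have no background here. Psma4, Psmd1, Psmd5, Psmd13 and Psmd14 passed under each of the 18 alternative settings that measured them. Psmd14 had no probe set under 1 of these. Psma4, Psmd1, Psmd5 and Psmd14 have only 1 probe set each. The settings on probe set choice therefore read the same values again for these genes and are no further check of them.

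As deposited, most genes with several probe sets above the array's median changed in 1 direction on all of them. The 36 genes have 74 probe sets, 17 genes having 1 and 19 more than 1. Of the 38 other probe sets, 19, of 14 genes, read above the array's median on all 6 arrays. Some lay little above it: 1 of Psmb1 averaged 5.92 and 1 of Psma6 6.07, beside array medians of 5.02 to 5.08. In 18 of these 19 the change had the sign of the brightest probe set, and 8 were called higher and 0 lower in a limma fit over all 45037 probe sets, where 9.94% were called higher and 4.93% lower. In that fit, 18 of the 36 brightest probe sets were called higher and 1 lower. The distance from the brightest probe set was at most 0.2 on the log2 scale in 12 of the 19, and at most 0.73, in Psmd4. After quantile normalization the sign differed from the brightest probe set in Psma7 (0.0042 against -0.059), Psmb4 (-0.13 against 0.12) and Psmc2 (-0.083 against 0.027). It also differed on both other Psmd4 probe sets (-0.063 and -0.22, against 0.25).

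Some genes that did not pass on their brightest probe set did so on another. Psma3 gave 0.76 ± 0.15 (adjusted p = 0.0137 over all probe sets), Psmd7 0.66 ± 0.13 (adjusted p = 0.0116), Psmc4 0.45 ± 0.11 (adjusted p = 0.0274) and Psmd11 0.67 ± 0.14 (adjusted p = 0.0149), by limma. These probe sets of Psma3 and Psmd7 averaged 5.96 and 6.04, against 11.00 and 9.37 on the brightest. The array medians were 5.02 to 5.08. After quantile normalization the Psmc4 probe set did not pass (0.22, limma adjusted p = 0.112), and those of Psma3, Psmd7 and Psmd11 did. Psmd11 has 4 probe sets beside its brightest that read above the array's median on all arrays, with changes of 0.27 to 0.67. Of these, 1 averaged only 5.59. The other 19 probe sets read below the median of at least 1 array, had changes from -0.13 to 0.72, and shared the sign of the brightest in 12 cases. Of these dim probe sets 2 were called higher and 0 lower. They were 1 of Psma1 (0.72 ± 0.16, limma adjusted p = 0.0216 over all probe sets) and 1 of Psmd13 (0.37 ± 0.10, adjusted p = 0.0414).

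**Figure D4:**
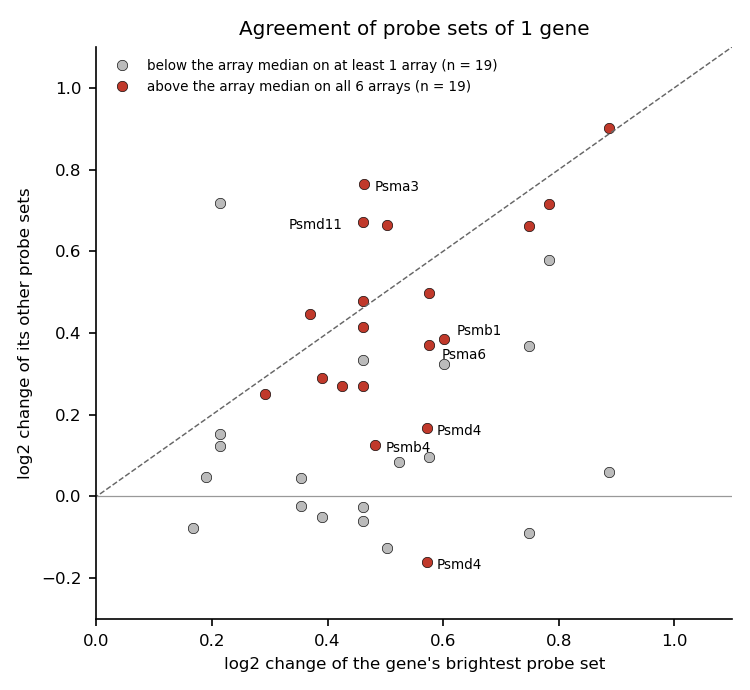
For the 19 genes with more than 1 probe set, the log2 change of each other probe set is plotted against that of the gene's brightest one, and the dashed line marks equal changes. Changes are as deposited. Red points, above the array median on all 6 arrays, lie mostly along the line, with named genes over 0.2 away from it. Grey points, from dim probe sets, run from -0.13 to 0.72 and lie mostly above 0.

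Other genes of the pathway were read from the same fit. It called 15.2% of all genes and 31.3% of the brightest 20% higher as deposited, and 12.0% and 19.8% after quantile normalization. The pathway lists are small and were not tested against these shares. Of 9 assembly chaperones, 4 rose and 0 fell (median 0.30; after quantile normalization 2 rose, median 0.13). Of the 4, Psmd5, Psmd9 and Psmd10 are members; the other was Pomp, which matures the core (0.48 ± 0.11, limma adjusted p = 0.0153; after quantile normalization 0.12 ± 0.10, adjusted p = 0.421). The core chaperones Psmg1 to Psmg4 stood at 0.15 to 0.30 and did not pass. Of 10 measured genes of other caps and bound partners, 3 rose and 0 fell (median 0.33), and after quantile normalization 2 rose and 2 fell (median 0.17).

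Sem1, a small subunit of the cap's lid outside the symbol rule, read 12.16, 12.20 and 12.15 on the TNFαDes-/- arrays, against 11.52, 11.01 and 10.89 on the Des-/- arrays. All TNFαDes-/- arrays were higher, by 1.03 ± 0.16 or 2.05-fold (limma adjusted p = 0.00279; after quantile normalization 0.68 ± 0.08, adjusted p = 0.000688). The cap-bound deubiquitinase Uchl5 rose by 0.67 ± 0.20 (limma adjusted p = 0.0434; after quantile normalization 0.51 ± 0.14, adjusted p = 0.0324), and Psmf1, an inhibitor of the core, by 0.43 ± 0.10 (adjusted p = 0.021; after quantile normalization 0.26 ± 0.11, adjusted p = 0.121). Psme1, of the cap that needs no ubiquitin, stood at -0.38 ± 0.14 as deposited, which did not pass, and fell after quantile normalization (-0.71 ± 0.08, adjusted p = 0.000731), as did Psme4 (-0.32 ± 0.09, adjusted p = 0.036), which stood at 0.05 ± 0.15 as deposited. Of the immunoproteasome subunits, Psmb10 rose by 0.80 ± 0.10 (limma adjusted p = 0.000881; after quantile normalization 0.58 ± 0.13, adjusted p = 0.0166), whereas Psmb8 stood at 0.09 ± 0.09 and Psmb9 at -0.23 ± 0.14, and neither passed.

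Of 9 measured regulators, 5 rose and 0 fell (median 0.44; after quantile normalization 4, median 0.25). Transcripts of the factors NFE2L1 and NFE2L2 were not among them: Nfe2l1 stood at -0.01 ± 0.10 and Nfe2l2 at 0.00 ± 0.15, neither passing (limma adjusted p = 0.939 and 0.989). After quantile normalization Nfe2l1 stood at -0.29 ± 0.10, adjusted p = 0.0694, and Nfe2l2 at -0.21 ± 0.09, adjusted p = 0.13. With Des-/- replicate 1 also left out, Nfe2l1 passed as lower, at -0.38 (limma adjusted p = 0.0138), where 13.5% of all genes were called lower. As deposited without that array, Nfe2l1 stood at 0.05 and did not pass (limma adjusted p = 0.704). Of their small Maf partners, Maff rose by 1.49 ± 0.14 and Mafg by 1.01 ± 0.10 (adjusted p = 0.000267 and 0.000297; after quantile normalization 1.40 and 0.88, both passing). Mafk, the other small Maf, rose by 0.44 ± 0.10 as deposited (limma adjusted p = 0.0181), and did not pass after quantile normalization (0.25 ± 0.13, adjusted p = 0.198), where its groups overlapped. Vcp, the ATPase that extracts proteins from membranes for the proteasome, rose by 0.76 ± 0.17 (limma adjusted p = 0.0162) and Syvn1, a ubiquitin ligase of the endoplasmic reticulum, by 0.65 ± 0.11 (adjusted p = 0.00418). Of 5 measured ubiquitin and shuttle genes, 2 rose and 0 fell, under both scalings (median 0.42, or 0.20 after quantile normalization): Rad23b by 1.05 ± 0.29 and Ubqln1 by 0.50 ± 0.13 (limma adjusted p = 0.0332 and 0.0286), both carriers of ubiquitin-tagged proteins. The genes of ubiquitin itself were not analysed here.

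Other measures moved with genotype. The log2 ratio of 3′ to 5′ control probe sets was 0.32 ± 0.04 in TNFαDes-/- and -0.01 ± 0.03 in Des-/- for Gapdh, and 0.73 ± 0.10 and 0.48 ± 0.08 for Actb (SD, n = 3 each); their part in the proteasome result was not tested. Heart muscle markers, none of them below the median on all arrays, passed the test in 0 of 8 cases (median 0.35; after quantile normalization 2 were lower, and without Des-/- replicate 1 as deposited 7 were higher), and their summed linear level was 173773 to 178182 on the TNFαDes-/- and 116161 to 189420 on the Des-/- arrays. Of 10 macrophage markers 7 rose and 1, Cd68, fell, under both scalings, with summed levels of 11868 to 12188 on the TNFαDes-/- and 7528 to 9949 on the Des-/- arrays. In bulk tissue, more cells of a type and more RNA per cell cannot be told apart, and the part of these cells in the proteasome result was not tested. Endothelial markers fell in 3 of 7 cases (5 after quantile normalization), with summed levels of 2490 to 2577 on the TNFαDes-/- and 2907 to 3645 on the Des-/- arrays, and fibroblast markers rose in 2 of 8 (after quantile normalization 1 rose and 4 fell). Of other lists, 1 of 6 smooth muscle, 2 of 3 adipocyte and 1 of 2 erythroid markers fell, and no T cell, B cell or skeletal muscle marker passed. Over all genes, 15.2% were called higher and 6.05% lower, or 12.0% and 10.4% after quantile normalization. After quantile normalization 3 of 6 smooth muscle, 3 of 3 adipocyte, 1 of 2 erythroid and 1 of 5 skeletal muscle markers, Ckm, were lower, and no T or B cell marker passed. Ckm read 13.11 to 13.83 as deposited, while Myh1, Myh2, Myh4 and Mylpf read 3.73 to 5.31, so Ckm may not mark skeletal muscle in this tissue.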

How the data were processed

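Hearts were measured on 6 arrays. The deposited values are on the log2 scale, 1 per probe set and array, and were made with RMA by the authors, per the submitters' processing notes (version unstated). No detection calls come with it, and precision is limited by the few arrays. Of 45037 probe sets other than controls, 34945 have 1 gene symbol in the platform annotation, 932 several and 9160 none; only the first were used, as 18193 genes. The test was that of limma (version 3.58.1, run in R version 4.3.3) with lmFit and eBayes, no covariates and no filter on dim probe sets; Benjamini-Hochberg adjustment covered all genes, with 0.05 as threshold. The fit was tested on simulated data. Quantile normalization was run over all probe sets of the table. The brightest 20% are the 3638 genes with the highest means.

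The members, the 5 lists of pathway genes and the cell type markers were chosen with earlier results of these data known. Each member is named. Values on all arrays were given for up to 3 members per family with the largest called changes, the catalytic subunits, Psmd2, Psmd4, Psmd14 and any member that fell. At most 4 called genes of each pathway list were named, with Mafk as a further called regulator outside that limit. The array values of Sem1, and Psme1, Psme4 and the pathway genes named as not passing, were chosen after their values were seen. Alternatives covered scaling, variance model, probe set choice, the replicate number as a block and each array left out.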

Additional observations from a re-analysis of the deposited data

How the results depend on the processing

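The count of members called higher (21) was 11 after quantile normalization, 12 after cyclic loess and 35 with array weights (2.42, 0.460 and 0.964 for the TNFαDes-/- arrays, against 0.229, 2.60 and 1.57 for the Des-/- arrays); it was 7 to 33 with an array left out in turn, and 14 to 25 under the remaining alternatives. The count called lower (1) became 0 with the filter on dim probe sets, which removes Psmb11, and was 0 to 1 with an array left out. All genes past the test in either direction (3869) numbered 4087 after quantile normalization, 4140 after cyclic loess and 8414 with array weights. With an array left out they numbered 2068 to 5814, and under the remaining alternatives, some of which test fewer genes, 3051 to 4814. The share of all genes called higher was not counted for cyclic loess, array weights or most remaining alternatives, so the members' counts there have no such background. The members' median log2 change (0.51) was 0.23 after quantile normalization, 0.24 after cyclic loess and 0.21 after quantile normalization without Des-/- replicate 1. Signs turned negative, none past the test, for Psma1 (-0.045), Psma7 (-0.059), Psmb2 (-0.047), Psmc1 (-0.064) and Psmd2 (-0.14) after quantile normalization; for the same genes after cyclic loess (-0.066, -0.022, -0.057, -0.10 and -0.12); for Psma1 (-0.031), Psma7 (-0.16), Psmb2 (-0.15), Psmb3 (-0.042), Psmc1 (-0.0053), Psmd2 (-0.23) and Psmd3 (-0.039) after quantile normalization without Des-/- replicate 1; and for Psmc1 (-0.077) and Psmd9 (-0.022) on the second highest probe set. The cause was not tested. With the replicate number as a block, 25 members were higher, 1 was lower, the median stayed at 0.51 and 4278 genes passed. Same-numbered arrays correlated at 0.25, 0.31 and -0.30 in their deviations from group means. Such deviations are tied together within a group of 3, so these values cannot show whether the numbers pair the arrays.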
